A study of Sus scrofa with 24 samples.

Results

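Gene expression in the subcutaneous dorsal fat of piglets born to sows fed hydroxytyrosol (HT) was compared with that of piglets born to control sows (C). The libraries were chosen by the diet code that ends each column name of the count table, HT but not VEHT against C, which gave 6 HT and 6 C libraries, 12 of the 24 in the series, and all genes were considered. Sows of both groups were Iberian and received a feed with vitamin E added as α-tocopheryl acetate at 30 mg per kg. HT feed also held 1.5 mg of hydroxytyrosol per kg as an olive extract. In the study's analysis of the feeds, C and HT feed also differed in starch, crude protein, fat and measured vitamin E. The part of these differences was not tested. The diets ran from day 85 of gestation to weaning at day 28 of lactation, so it was the sow and not the piglet that was supplemented. Each library came from 1 male piglet of a separate litter, 33 days old and 5 days past weaning, and the piece of fat was taken at the last rib. Of 25880 genes in the table, 17468 were tested after genes without a count in 9 or more of the 12 libraries had been removed. Animals are named below by the numbers in the count table (C animals G025, G035, G041, G047, G117 and G206; HT animals G008, G012, G066, G121, G189 and G196).

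Hydroxytyrosol is a phenol of the olive that carries a catechol ring, scavenges radicals and is known in cultured cells to switch on NRF2, the transcription factor of the response to oxidants. Subcutaneous fat holds lipid-filled fat cells together with vessels, nerves, connective tissue and resident immune cells, among which macrophages are a main source of cytokines and of superoxide. In a bulk library of such tissue, fewer cells of a type and less RNA per cell cannot be told apart.

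Gene counts ran from 36614639 to 57119619 per library in C and from 42725609 to 52494141 in HT, with medians of 44751430.5 and 45656492.5, and between 16323 and 17068 genes had at least 1 count. The label of the tissue held in its markers: all 9 adipocyte markers measured were present, with a mean level of 6.94 to 10.2 in C and 8.45 to 10.2 in HT. Here and below, the level of a list in a library is the mean over its genes of log2(CPM + 0.5), where CPM is the count of a gene scaled in the usual way to the gene-count total of its library. C libraries G041 and G047 stood apart from the rest. Their macrophage marker levels were 9.25 and 9, against 4.54 to 5.97 in the other 4 C libraries and 4.14 to 6.15 in HT, and their adipocyte levels of 6.94 and 7.3 lay below those of the other 10 libraries. For this reason most results are also given for the 10 libraries without G041 and G047. Skeletal muscle markers were high in C libraries G025 (10.4) and G117 (10.1) and in HT libraries G121 (11.5), G012 (10.8) and G189 (8.37), against at most 4.95 elsewhere.

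No gene passed the threshold of q ≤ 0.10 with a fold change of at least 1.5 in the edgeR quasi-likelihood test (0% of genes tested, smallest adjusted p = 0.335). At an unadjusted p under 0.05 the same test marked 1754 genes as lower in HT, which is 10% of those tested, and 441 as higher in HT (2.52%). DESeq2, run on the same libraries at the same threshold, called 676 genes lower in HT (3.87%) and 64 higher (0.366%), whereas voom with sample quality weights called 0. In 558 of the 676 genes that DESeq2 called lower, G041 and G047 were the highest of the 12 libraries. The same share over all genes tested was not counted. Genes called lower are chosen for high values in C, so the 558 is only a description. Without these animals edgeR again called 0 genes (smallest adjusted p = 0.78), with 619 genes lower (3.51%) and 230 higher (1.31%) at an unadjusted p under 0.05, and DESeq2 called 56 lower (0.318%) and 7 higher (0.0397%). At the unadjusted threshold 332 genes were lower and 143 higher both with and without G041 and G047. Because no gene passed the edgeR test, individual genes are described below as reading lower or higher, with log2 fold changes of HT over C and their standard errors (SE), and with DESeq2 adjusted p-values beside some of them. On simulated data DESeq2 called more unchanged genes than edgeR did, and more than its threshold allows, so there its adjusted p-values were the less strict ones. The simulation was a single data set that drew each gene independently. Its spread was the one edgeR estimated in the 10 libraries without G041 and G047, a setting that may favour edgeR. The simulation therefore cannot tell how strict either test was with these animals included. Each gene described had an unadjusted edgeR p under 0.05 with 12 libraries unless its edgeR adjusted p is printed or its paragraph says otherwise. Every edgeR adjusted p was at least 0.335 with 12 libraries and 0.78 with 10. Below, p under or over 0.05 is the unadjusted edgeR p in the set of libraries it stands beside.

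**Figure D1:**
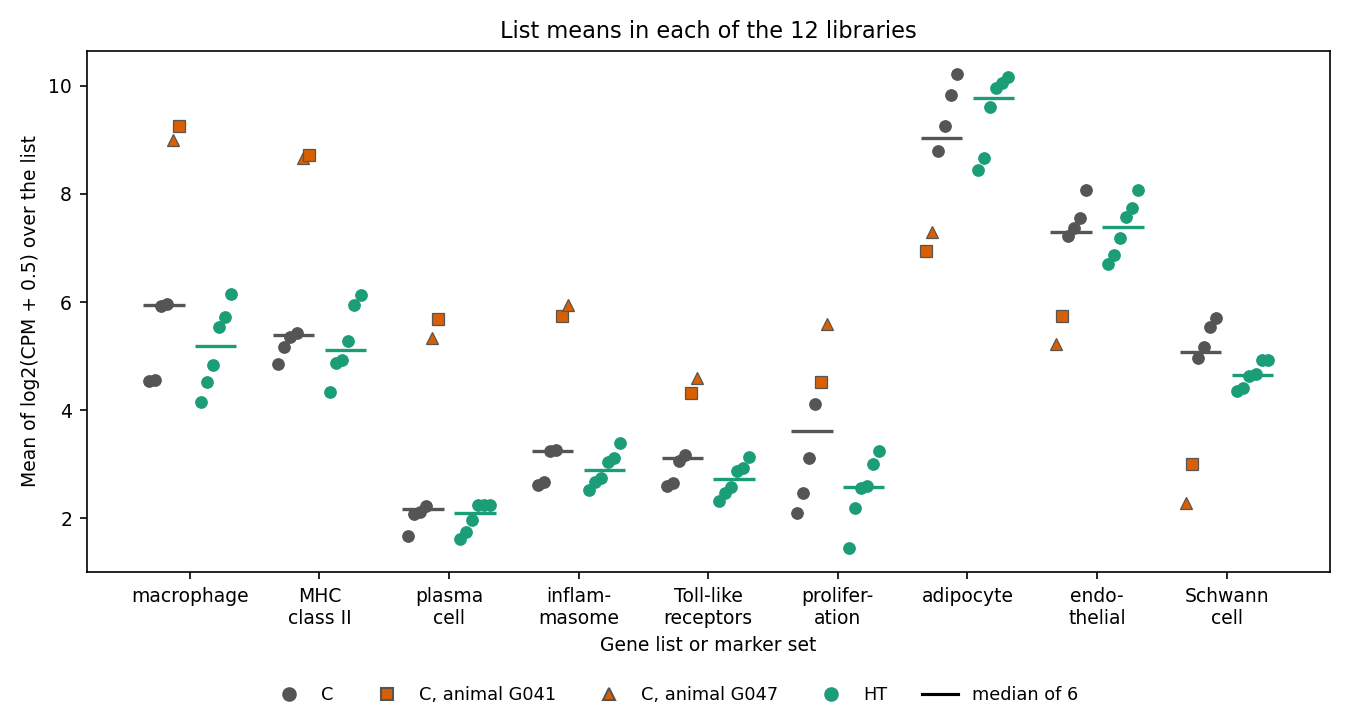
Level of 9 gene lists in each library, as the mean of log2(CPM + 0.5) over the genes of the list. Grey points are C libraries with G041 and G047 marked by an orange square and triangle, green points are HT libraries, and the bar is the median of 6. The macrophage level is 9.25 in G041 and 9 in G047, above all 10 other libraries.

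Whole groups of immune genes read lower in HT, and these readings rested on G041 and G047. All 15 macrophage markers tested had a p under 0.05 and read lower, with a median log2 fold change of -2.25, against 10% of all genes tested. Without G041 and G047 none did and the median was 0.00. These animals were set aside after their macrophage levels were seen, so this loss was built in and is only a description. Over all genes tested the median was -0.03 with 12 libraries and 0.02 with 10. The same held for genes that display peptides to helper T cells, of which 10 of 11 read lower at p under 0.05 (median -2.07) and 0 without the pair of animals (median 0.19). Of 9 plasma cell markers 6 read lower (median -3.60), of 9 B cell markers 5 and of 14 T cell markers 2, and none of these did so in the 10 libraries. The plasma cell level was 5.69 in G041 and 5.33 in G047, against 1.67 to 2.22 in the other C libraries and 1.61 to 2.25 in HT. How much of the difference between the diets comes from the composition of these pieces of tissue was not tested.

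MRC1, the mannose receptor of tissue macrophages, read 13.6, 103 and 1600 CPM in C (lowest, median and highest library) and 18.1, 29.7 and 82.9 CPM in HT, a log2 fold change of -3.83 ± 1.12. The highest C values belonged to G041 (1300) and G047 (1600), the groups overlapped, and in the 10 libraries the change was -0.57 ± 0.56 (p over 0.05). LYZ, the lysozyme of phagocytes, was at 10.8, 25.1 and 1560 CPM in C and 3.63, 12.1 and 34.3 CPM in HT. The complement component C3 was at 41, 98 and 1580 CPM in C and 30.6, 47.2 and 116.5 CPM in HT. For both genes the highest C library was again G041, and without G041 and G047 both had a p over 0.05.

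Among secreted signals, 6 of 14 CC chemokines tested read lower in HT at p under 0.05 and 1 read higher, and 4 of 10 CXC chemokines read lower. None of these lower readings was found in the 10 libraries. CCL22, which draws CCR4-bearing T cells, was at 0.0906, 0.736 and 75.2 CPM in C and at 0, 0.0322 and 0.345 CPM in HT, a log2 fold change of -8.24 ± 2.04 (DESeq2 adjusted p = 3e-04). G041 (54.8) and G047 (75.2) carried the difference, since the other C libraries ended at 1.17 CPM, and without the pair the change was -2.37 ± 1.15 (p over 0.05, DESeq2 adjusted p = 0.945). CCL1, a ligand of CCR8, was nearly confined to the same animals, with 7.3 CPM in G041, 17 in G047 and at most 0.0427 in any other library of either diet. Over the libraries of each group CCL1 had 1190 counts in C and 2 in HT, a ratio of 604 in CPM with a counting interval (95%) of 167 to 4990, which covers counting error and not the spread between animals. CCL26, an attractant of eosinophils, went the other way: it was at 2.49, 6.79 and 9.17 CPM in C and 3.43, 17.2 and 133 CPM in HT, with a log2 fold change of 2.26 ± 0.74 that was 2.31 ± 0.92 without G041 and G047. HT library G066 held the highest CCL26 value, and the groups overlapped. The promoters of CCL1 and CCL22 are shown because each holds 1 match to the NF-kB consensus, the site of the inflammatory transcription factor, printed in capitals. They are the 250 bases before the RefSeq start site in Sscrofa11.1, on the plus strand of chr12:40727764-40728013 for CCL1, with the match at bases -68 to -59, and on the plus strand of chr6:19296476-19296725 for CCL22, with the match at -195 to -186. Over 19556 pig promoters of the same length, 14.0% held such a match on either strand, and a match describes letters and not a working site.
CCL1: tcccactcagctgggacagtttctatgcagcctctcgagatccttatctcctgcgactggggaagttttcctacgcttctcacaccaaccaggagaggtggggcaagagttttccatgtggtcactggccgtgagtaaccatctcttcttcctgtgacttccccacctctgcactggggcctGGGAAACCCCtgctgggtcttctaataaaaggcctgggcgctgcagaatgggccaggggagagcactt
CCL22: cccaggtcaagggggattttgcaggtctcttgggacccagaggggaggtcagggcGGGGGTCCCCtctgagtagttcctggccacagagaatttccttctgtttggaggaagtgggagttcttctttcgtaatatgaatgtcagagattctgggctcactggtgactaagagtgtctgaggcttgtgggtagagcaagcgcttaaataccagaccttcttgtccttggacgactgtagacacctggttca

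Of 14 inflammatory cytokines tested, 8 read lower in HT at p under 0.05 and 1 higher (median log2 fold change -2.57), against 0 and 1 in the 10 libraries (median 0.17). IL1A, the alarm cytokine of injured cells, was at 0.16, 1.02 and 28.5 CPM in C and 0.0668, 0.406 and 1.56 CPM in HT, and TNF, the main cytokine of macrophages, was at 0.747, 2.31 and 24.8 CPM in C and 0.21, 1.27 and 2.84 CPM in HT. Their log2 fold changes of -3.82 ± 1.30 and -2.39 ± 0.93 shrank to -0.31 ± 0.86 and -0.19 ± 0.66 without G041 and G047. IL27 and IFNG, which direct T helper cells, read -3.93 ± 1.62 (p under 0.05) and -2.38 ± 1.32 (edgeR adjusted p = 0.47) with 12 libraries and 1.31 ± 1.17 and 0.65 ± 1.16 with 10 (both p over 0.05). CSF3, the growth factor of neutrophils, was the member that read higher, at 0.792, 1.09 and 1.93 CPM in C and 0.914, 2.27 and 4.95 CPM in HT, a change of 1.20 ± 0.44 that was 1.23 ± 0.54 in the 10 libraries. Its values overlapped between the diets, with G121 and G012 highest in HT. TGFB1, which restrains inflammation, read -1.53 ± 0.59 with 12 libraries and -0.05 ± 0.28 with 10.

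Receptors followed the cytokines, with 13 of 27 cytokine receptors lower at p under 0.05 and 1 higher, 10 of 20 chemokine receptors lower, and 11 of 21 genes of Toll-like receptors and bacterial sensing lower. Without G041 and G047 these counts were 3, 0 and 1. TLR2, which recognises bacterial lipoproteins, was at 3.65, 9.91 and 206.3 CPM in C and 2.83, 6.93 and 10.4 CPM in HT. Its change of -3.36 ± 1.01 became -0.16 ± 0.40 without the pair. IL10RA and IRF8, a cytokine receptor and a transcription factor of the myeloid line, read -2.22 ± 0.87 and -2.96 ± 1.06 with 12 libraries, and 0.44 ± 0.37 and 0.36 ± 0.52 with 10. IL23R had 1189 counts in C, nearly all in G041 (13.5 CPM) and G047 (9.04 CPM), and 0 in every HT library, at least 403-fold lower when 3 counts over the HT group are taken as the floor.

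Of 13 inflammasome genes, which mature interleukin 1 beta, 10 read lower at p under 0.05 (median -2.06) and 0 did so without G041 and G047 (median -0.04). NLRP3, its sensor, was at 0.94, 3.7 and 89.6 CPM in C and 0.779, 3.1 and 3.6 CPM in HT, and CASP1, its protease, at 1.47, 3.98 and 120 CPM in C and 1.47, 5.21 and 10.3 CPM in HT. Both were highest in G047 and next in G041, at values far above every other library. Their changes were -3.36 ± 1.07 and -2.75 ± 1.14 with 12 libraries and 0.00 ± 0.48 and 0.91 ± 0.63 with 10.

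**Figure D2:**
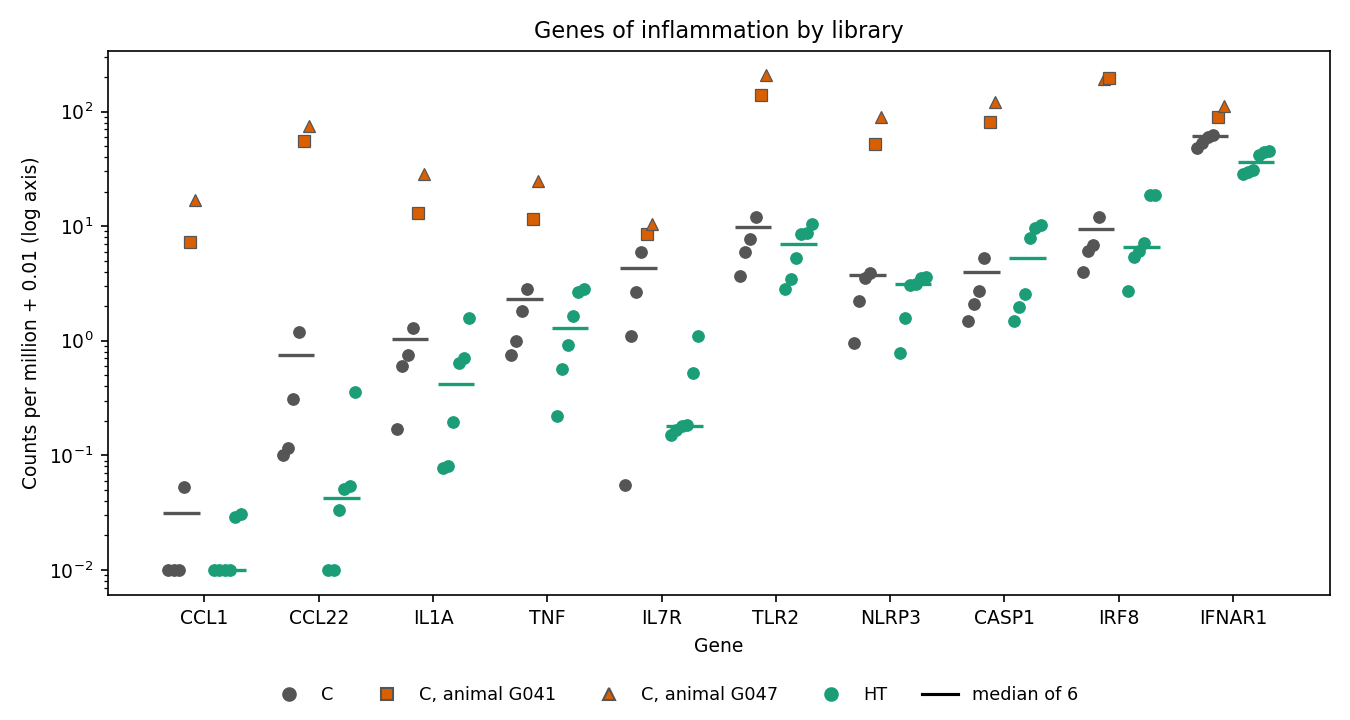
CPM of 10 immune genes in each library, on a log axis after 0.01 had been added. Symbols are as in the plot of list levels and the bar is the median of 6. In IFNAR1 every HT library lies below every C library, whereas in TLR2, NLRP3 and CASP1 the C libraries other than G041 and G047 overlap with the HT libraries.

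IFNAR1, IFNAR2, IL7R and LBP read lower in HT with and without the pair, but DESeq2 called none of them in the 10 libraries. IFNAR1, a chain of the type I interferon receptor, was at 48.3, 61.4 and 113 CPM in C and 28.6, 36.5 and 45.1 CPM in HT. Every HT library was below every C library, with a log2 fold change of -0.97 ± 0.24 (DESeq2 adjusted p = 0.0224) and of -0.57 ± 0.18 in the 10 libraries (p under 0.05, DESeq2 adjusted p = 0.428). IFNAR2, the other chain, read -1.22 ± 0.38 and -0.36 ± 0.16 in the 10 libraries (p under 0.05), with overlapping groups. IL7R, the interleukin 7 receptor of lymphocytes, was at 0.0453, 4.29 and 10.5 CPM in C and 0.14, 0.172 and 1.09 CPM in HT, a change of -3.71 ± 0.98 and of -2.62 ± 0.93 in the 10 libraries (p under 0.05). Its lowest value was that of C library G025, so the groups overlapped. LBP, which hands bacterial lipopolysaccharide to CD14, was at 0.235, 0.614 and 3.11 CPM in C and 0, 0.103 and 0.28 CPM in HT, a change of -3.29 ± 1.01 and of -2.84 ± 1.00 in the 10 libraries. PLA2G2F, a secreted phospholipase A2, had 355 counts in C and 0 in HT, at least 120-fold lower at the same floor, and was too sparse to be tested without G041 and G047. G041 (3.15 CPM), G047 (2.73) and G025 (1.13) held nearly all of them, and C libraries G117 and G206 were at 0 as well.

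Genes of dividing cells read lower in HT as well. Of 22 tested, 20 read lower at p under 0.05 (median log2 fold change -1.80), and in the 10 libraries 0 did, although 20 of 22 still had a negative sign (median -0.67). BUB1B, a kinase of the mitotic checkpoint, was at 1.95, 7.61 and 33.8 CPM in C and 0.381, 2.51 and 4.21 CPM in HT, with a change of -2.40 ± 0.76 and of -1.04 ± 0.61 in the 10 libraries (p over 0.05). The level of the list was highest in G047 (5.6), G041 (4.53) and G117 (4.1), and the remaining C libraries lay within the HT range of 1.44 to 3.24.

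**Figure D3:**
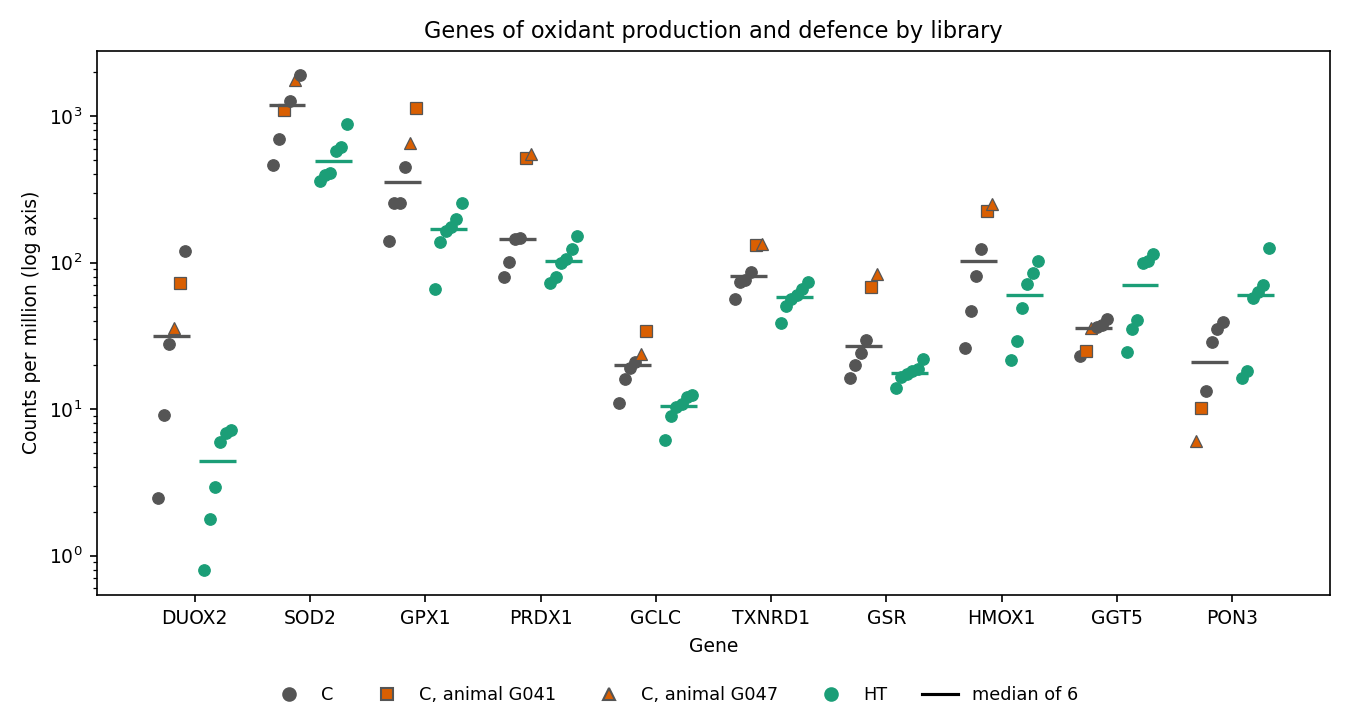
CPM of 10 genes that make or remove oxidants in each library, on a log axis. Symbols are as in the plot of list levels and the bar is the median of 6. DUOX2 ranges from 2.49 to 119 CPM in C and from 0.8 to 7.19 CPM in HT, and GGT5 and PON3 have higher medians in HT.

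Enzymes that make superoxide and hydrogen peroxide read lower in HT. All 14 members of the NADPH oxidase and xanthine oxidase list had a negative sign and 8 had a p under 0.05 (median -2.08), against 9 negative and 2 under 0.05 in the 10 libraries (median -0.55). XDH, which makes superoxide while it degrades purines, was at 0, 0.42 and 95.8 CPM in C and 0.0223, 0.102 and 0.557 CPM in HT, and the high values were those of G041 and G047. Without them its change was -0.28 ± 1.15 (p over 0.05). The reading of DUOX2 (chr1:126620468-126641406, plus strand), a dual oxidase that releases hydrogen peroxide, did not rest on that pair. DUOX2 was at 2.49, 31.8 and 119 CPM in C and 0.8, 4.43 and 7.19 CPM in HT, a log2 fold change of -3.37 ± 0.82 (DESeq2 adjusted p = 0.00178). All C libraries but G025 were above every HT library, with G117 the highest, and in the 10 libraries the change was -3.11 ± 0.88 (p under 0.05, DESeq2 adjusted p = 0.0509).

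Few enzymes that remove oxidants read lower or higher in HT. Over all genes tested 10% read lower and 2.52% higher at p under 0.05, and the counts below lie near these shares. Of 15 superoxide dismutases, catalase and peroxidases 2 read lower at p under 0.05 and 0 higher (median 0.10), of 21 thioredoxin and glutathione enzymes 3 read lower and 1 higher (median 0.00), and of 25 NRF2 targets and regulators 4 read lower and 0 higher (median -0.20). In the 10 libraries the lower counts were 1, 1 and 2, against 3.51% of all genes. SOD2, the superoxide dismutase of mitochondria, was at 461, 1183 and 1890 CPM in C and 359, 493 and 880 CPM in HT, a change of -1.18 ± 0.35 and of -0.97 ± 0.37 without the pair (p under 0.05). C library G035 held the highest SOD2 value and G025 and G206 the lowest of C, within the HT range. GPX1, which reduces hydrogen peroxide with glutathione and is not counted in the list because its name was absent from the reference table, was at 140, 353 and 1140 CPM in C and 66.2, 170 and 253 CPM in HT. Its change of -1.59 ± 0.49 was -0.70 ± 0.35 in the 10 libraries (p over 0.05), and the groups overlapped.

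GCLC, the catalytic subunit of the enzyme that limits glutathione synthesis, was at 10.9, 20.1 and 34.2 CPM in C and 6.19, 10.6 and 12.4 CPM in HT. All C libraries but G206 were above every HT library, and the change was -1.08 ± 0.28 (DESeq2 adjusted p = 0.0246) and -0.71 ± 0.24 in the 10 libraries (p under 0.05, DESeq2 adjusted p = 0.494). TXNRD1 and GSR, which restore thioredoxin and glutathione, read -0.73 ± 0.25 and -1.21 ± 0.40, and -0.33 ± 0.19 and -0.29 ± 0.16 in the 10 libraries. HMOX1, the haem oxygenase that NRF2 induces, read -1.15 ± 0.55 (edgeR adjusted p = 0.408) and -0.22 ± 0.45. The promoter of GCLC is shown because it holds 1 match to the antioxidant response element TGACNNNGC, the letters that NRF2 binds, at bases -182 to -174 of the plus strand of chr7:27209315-27209564 (Sscrofa11.1, RefSeq). The match is in capitals, 9.97% of the 19556 promoters held one on either strand, and the same share among the 264 named genes with a promoter was 11.4%.
GCLC: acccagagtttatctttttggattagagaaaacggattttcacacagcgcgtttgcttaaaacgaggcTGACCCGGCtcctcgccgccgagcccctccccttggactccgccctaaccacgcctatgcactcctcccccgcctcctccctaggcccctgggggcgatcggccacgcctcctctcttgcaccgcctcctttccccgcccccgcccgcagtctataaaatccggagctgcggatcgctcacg

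On the other side, GGT5, a gamma-glutamyl transferase that cleaves glutathione conjugates outside the cell, was at 23, 36 and 41.3 CPM in C and 24.6, 70 and 114 CPM in HT, a change of 1.07 ± 0.37 and of 1.04 ± 0.44 in the 10 libraries. HT libraries G008, G066 and G189 were far above C and the rest lay within its range. PON3, a lactonase carried on lipoproteins, was at 6.02, 21 and 39.5 CPM in C and 16.2, 59.9 and 126.7 CPM in HT, a change of 1.41 ± 0.57 and of 1.05 ± 0.58 without the pair (p over 0.05). ABCA1, which exports cholesterol and tocopherol from cells, was at 17.3, 36.2 and 55.1 CPM in C and 8.07, 21.7 and 35.3 CPM in HT, with -0.77 ± 0.33 and -0.99 ± 0.32 in the 10 libraries (p under 0.05). Among 10 enzymes and carriers that modify catechols such as hydroxytyrosol, 1 read lower at p under 0.05 and 0 higher, and none of them did so without G041 and G047.

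In 24 genes every HT library read below every C library (0.137% of genes tested). In 15 every HT library read above every C library (0.0859%). With so few libraries in each group, some genes separate completely by chance. How many would do so was not computed, so these counts are only a description and cannot show an excess over chance. TET3 (chr3:68918896-69020406, minus strand of Sscrofa11.1), which oxidises methylated cytosine in DNA, was at 3.07, 4.62 and 9.79 CPM in C and 0.796, 1.43 and 2.08 CPM in HT. Its log2 fold change of -1.86 ± 0.35 (DESeq2 adjusted p = 6.74e-05) was -1.48 ± 0.31 in the 10 libraries (p under 0.05, DESeq2 adjusted p = 0.0028). CDCP1, a transmembrane substrate of Src kinases, was at 1.85, 4.22 and 5.4 CPM in C and 0.557, 0.764 and 1.71 CPM in HT, with changes of -2.02 ± 0.38 and -1.77 ± 0.40. TSPYL5, a member of the nucleosome assembly family, was at 2.26, 2.78 and 3.7 CPM in C and 0.952, 1.27 and 1.69 CPM in HT, with -1.21 ± 0.26 and -0.98 ± 0.27. In these genes the C libraries other than G041 and G047 also lay wholly above HT, and DESeq2 called all 3 in both sets of libraries. SLC43A2, a carrier of branched-chain amino acids, was at 105, 156 and 209 CPM in C and 66.2, 94.1 and 103 CPM in HT, with -0.82 ± 0.19 and -0.57 ± 0.16. Further genes of this kind were picked after their values were seen. They included TERT, the catalytic subunit of telomerase (-3.35 ± 0.83, at most 0.86 CPM), and SELENOI, which makes ethanolamine phospholipids (-1.19 ± 0.33). Others were TRIO, a guanine nucleotide exchange factor (-0.46 ± 0.12), LRBA, which protects CTLA4 from breakdown (-0.54 ± 0.18), and E2F3, a transcription factor of the cell cycle (-0.68 ± 0.24). In the 10 libraries E2F3 read -0.41 ± 0.22 (p over 0.05), while TERT, SELENOI, TRIO and LRBA kept a p under 0.05.

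**Figure D4:**
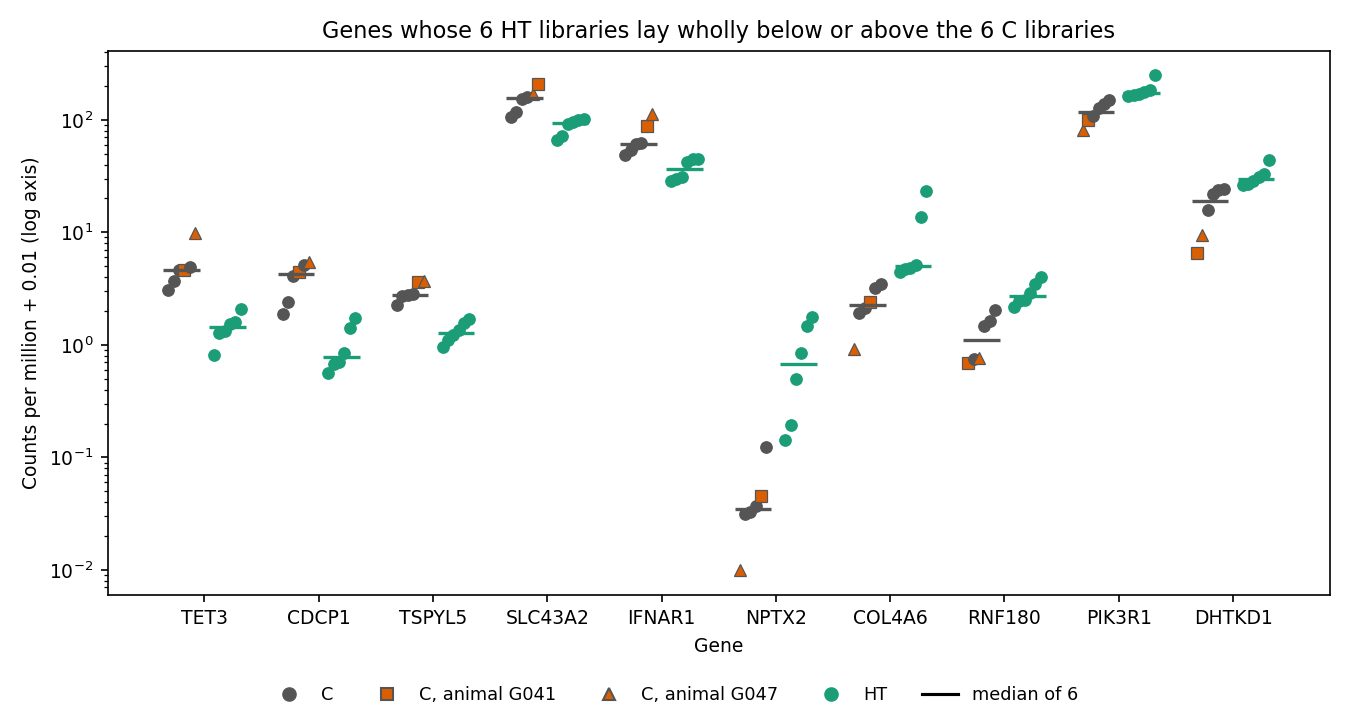
CPM of 10 genes whose HT and C libraries did not overlap, on a log axis after 0.01 had been added. Symbols are as in the plot of list levels and the bar is the median of 6. TET3, CDCP1, TSPYL5, SLC43A2 and IFNAR1 read lower in HT and NPTX2, COL4A6, RNF180, PIK3R1 and DHTKD1 higher.

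Of the genes that read above every C library, NPTX2 (chr3:5720686-5732458, plus strand), a secreted pentraxin known from synapses, was at 0, 0.025 and 0.114 CPM in C and 0.133, 0.666 and 1.75 CPM in HT. Its log2 fold change was 4.35 ± 0.87 (DESeq2 adjusted p = 0.000148) and 4.07 ± 0.96 in the 10 libraries (p under 0.05, DESeq2 adjusted p = 0.0131). COL4A6, a basement membrane collagen chain, was at 0.904, 2.27 and 3.43 CPM in C and 4.42, 4.99 and 23.1 CPM in HT, with 1.95 ± 0.47 and 1.78 ± 0.50. HT libraries G189 and G196 were far above the other HT libraries in COL4A6. COL4A5, its partner chain, read 1.13 ± 0.43 with overlapping groups, and 0.81 ± 0.41 in the 10 libraries (p over 0.05). PIK3R1, the regulatory subunit of the kinase that carries the insulin signal, was at 81.4, 118.5 and 151 CPM in C and 162.1, 174 and 248 CPM in HT, with 0.64 ± 0.17 (DESeq2 adjusted p = 0.0311) and 0.51 ± 0.17 in the 10 libraries (p under 0.05, DESeq2 adjusted p = 0.434). RNF180, a ubiquitin ligase, was at 0.683, 1.1 and 2.02 CPM in C and 2.17, 2.69 and 4 CPM in HT, with 1.28 ± 0.32 and 1.04 ± 0.32. DHTKD1, a mitochondrial dehydrogenase of lysine breakdown, TAFAZZIN, which remodels cardiolipin, and POLL, a DNA repair polymerase, were picked after their values were seen and read 0.89 ± 0.30, 0.34 ± 0.12 and 0.78 ± 0.24. ABCA8, a lipid transporter, read 0.87 ± 0.20 and PCYT2, which makes phosphatidylethanolamine precursors, 0.62 ± 0.18. The values of ABCA8 and PCYT2 overlapped between the diets.

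Some of the smallest p-values belonged to genes that no list held. ACP3, an acid phosphatase of secretory epithelia, had the smallest unadjusted p of all named genes that read lower (8.65e-05), with 0.0229, 0.741 and 2.21 CPM in C and 0, 0 and 0.0234 CPM in HT. It had 233 counts over the C group and 1 over the HT group, a ratio of 237 in CPM with a counting interval of 42.5 to 9350, and C library G035 lay within the HT range. DIP2B, a gene of neuronal growth, was at 9.35, 18 and 20.6 CPM in C and 2.13, 6.69 and 10.8 CPM in HT, with a log2 fold change of -1.31 ± 0.32 and of -1.34 ± 0.33 in the 10 libraries, where the groups did not overlap. ADGRV1, a very large adhesion receptor, was at 0.154, 0.887 and 1.86 CPM in C and 0.139, 0.229 and 0.431 CPM in HT, with -1.71 ± 0.53 and -2.11 ± 0.42. RAD52, a protein of DNA repair, was at 12.5, 14.6 and 18.1 CPM in C and 16.9, 20.9 and 27.1 CPM in HT, with 0.52 ± 0.13 and 0.46 ± 0.13 in the 10 libraries. CYP2A19, a pig cytochrome P450 whose close relatives can share its reads, was at 0.375, 4.43 and 11.5 CPM in C and 8.36, 17.9 and 106 CPM in HT, with 2.51 ± 0.75 and 2.36 ± 0.72. HT library G189 held by far the highest CYP2A19 value, and C library G035 lay above HT library G121.

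The clade B serpins, protease inhibitors that mostly stay inside the cell, all had a negative sign. Of 9 tested, 6 had a p under 0.05 (median log2 fold change -1.25), against 3 in the 10 libraries (median -0.33, 7 negative). SERPINB2, the plasminogen activator inhibitor of macrophages and keratinocytes, was at 0.128, 0.634 and 5.16 CPM in C and 0, 0.0568 and 0.0863 CPM in HT, every HT library below every C library. Its change was -4.91 ± 1.16 and -3.56 ± 1.06 in the 10 libraries (p under 0.05), where DESeq2 gave no adjusted p. Of the C libraries other than G041 and G047, G025 held 1.65 CPM of SERPINB2. G035, G117 and G206 held only 0.128 to 0.219 CPM, close to the highest HT value. SERPINB11 was at 0.333, 1.57 and 3.88 CPM in C and 0.0952, 0.516 and 0.645 CPM in HT, with -1.99 ± 0.55 (DESeq2 adjusted p = 0.0168) and -2.32 ± 0.50 in the 10 libraries (p under 0.05, DESeq2 adjusted p = 0.00457). Only C library G041 overlapped with HT in SERPINB11, and the difference was larger without the pair. The promoters of both genes are shown because each holds 1 match to the AP-1 site TGANTCA, in capitals, close to the start site. They are read on the minus strand of Sscrofa11.1 from RefSeq, at chr1:157886526-157886775 with the match at bases -8 to -2 for SERPINB2, and at chr1:158030834-158031083 with the match at -11 to -5 for SERPINB11. Such a match was held by 5.27% of the 19556 promoters and by 6.82% of the 264 named genes with one, and by itself it says nothing of binding.
SERPINB2: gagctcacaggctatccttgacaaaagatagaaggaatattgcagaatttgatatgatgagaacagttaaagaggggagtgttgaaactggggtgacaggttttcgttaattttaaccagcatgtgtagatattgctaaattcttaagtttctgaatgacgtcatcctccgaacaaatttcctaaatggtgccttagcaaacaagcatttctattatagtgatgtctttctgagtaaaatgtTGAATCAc
SERPINB11: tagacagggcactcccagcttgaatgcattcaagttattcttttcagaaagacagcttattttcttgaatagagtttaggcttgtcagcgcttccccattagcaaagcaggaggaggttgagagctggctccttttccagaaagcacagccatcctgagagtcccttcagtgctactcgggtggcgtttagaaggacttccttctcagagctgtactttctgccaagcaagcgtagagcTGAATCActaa

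Epithelial genes moved with single C libraries. Of 9 keratinocyte markers, 3 read lower at p under 0.05 with 12 libraries and 5 with 10, and the level of the list was 3.47 in G025 and 2.49 in G117, against 0.222 to 1.02 in the other C libraries and 0.433 to 1.34 in HT. CDH1, the cadherin of epithelia, was at 20.2 CPM in G025 and 13.2 in G117, at most 2.73 in the other C libraries and at most 3.38 in HT. DSG1, a desmosomal cadherin of epidermis, was at 18.8 CPM in G025 and at most 0.492 elsewhere, SERPINB5 was at 23.1 CPM in G025 and at most 2.49 elsewhere, and KRT85, a hair keratin, had 49.1 CPM in G025 and at most 0.0234 elsewhere. Without G025 the change of SERPINB5 was -3.29 in place of -6.35, that of DSG1 -2.28 in place of -7.48, and that of KRT85 0.51 in place of -9.84. EHF, an epithelial transcription factor, also read highest in G117 (4.42 CPM) and G025 (3.96 CPM). It was at 0.457 to 2.05 CPM in the other C libraries and 0.0762 to 0.598 CPM in HT. Its change without G025 was -2.50 against -2.83 with it, and G117 stayed in that fit. The part of skin in these differences was not tested.

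Some markers of Schwann cells, which form the myelin sheath of nerves, read lower in HT once G041 and G047 were left out. The Schwann cell level was 3 in G041 and 2.27 in G047, below all 10 other libraries. It was 4.96 to 5.7 in the other C libraries and 4.35 to 4.92 in HT, so in the 10 libraries the groups did not overlap. Leaving out the lowest C libraries raised the C group by construction. This separation and the marker count with 10 libraries are therefore only a description. With 12 libraries 1 of 8 Schwann cell markers had a p under 0.05 (median log2 fold change -0.34), and with 10 libraries 4 did (median -0.65), all lower. MBP, which compacts myelin, was at 62.9, 110.5 and 128 CPM in C and 34.7, 48.3 and 64.9 CPM in HT, and G041 (121.5) and G047 (128) were among its highest libraries. It read -1.07 ± 0.22 with 12 libraries (DESeq2 adjusted p = 0.00192) and -0.83 ± 0.21 with 10 (DESeq2 adjusted p = 0.0945).

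PRX is a further Schwann cell marker, while UGT8, ERBB3, ITGA6 and SPTLC3 stood in no marker list and were named because they had among the smallest p-values in the 10 libraries, so their values there are a description. ITGA6 and SPTLC3 are not specific to nerve. All changes here are those of the 10 libraries, each at a p under 0.05, and the values are those of the C libraries other than G041 and G047, then those of HT. UGT8, which makes the galactolipids of myelin, was at 5.41 to 11.9 and 1.49 to 3.75 CPM (-1.67 ± 0.33), and ERBB3, the neuregulin receptor of Schwann cells, at 18 to 36.8 and 11.8 to 16.4 CPM (-1.10 ± 0.20). PRX, a scaffold of the myelinating cell, was at 28.5 to 59.9 and 14.6 to 26.1 CPM (-1.05 ± 0.24), and ITGA6, a laminin receptor, at 43.9 to 46.4 and 18.1 to 37.7 CPM (-0.81 ± 0.17). SPTLC3, which starts sphingolipid synthesis, was at 1.34 to 2.05 and 0.256 to 0.49 CPM (-2.11 ± 0.33), and its DESeq2 adjusted p of 7.79e-08 compares with an adjusted p of 0.78 in edgeR. In each of these genes the 4 C libraries lay above all 6 HT libraries. G041 and G047 lay below or within the HT range. The same separation was found in 0.568% of all genes tested with 10 libraries. Some genes separate in this way by chance, and how many would do so was not computed. With all 12 libraries none of UGT8, PRX, ITGA6 and SPTLC3 had a p under 0.05. Whether the pieces of fat held different amounts of nerve was not tested.

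**Figure D5:**
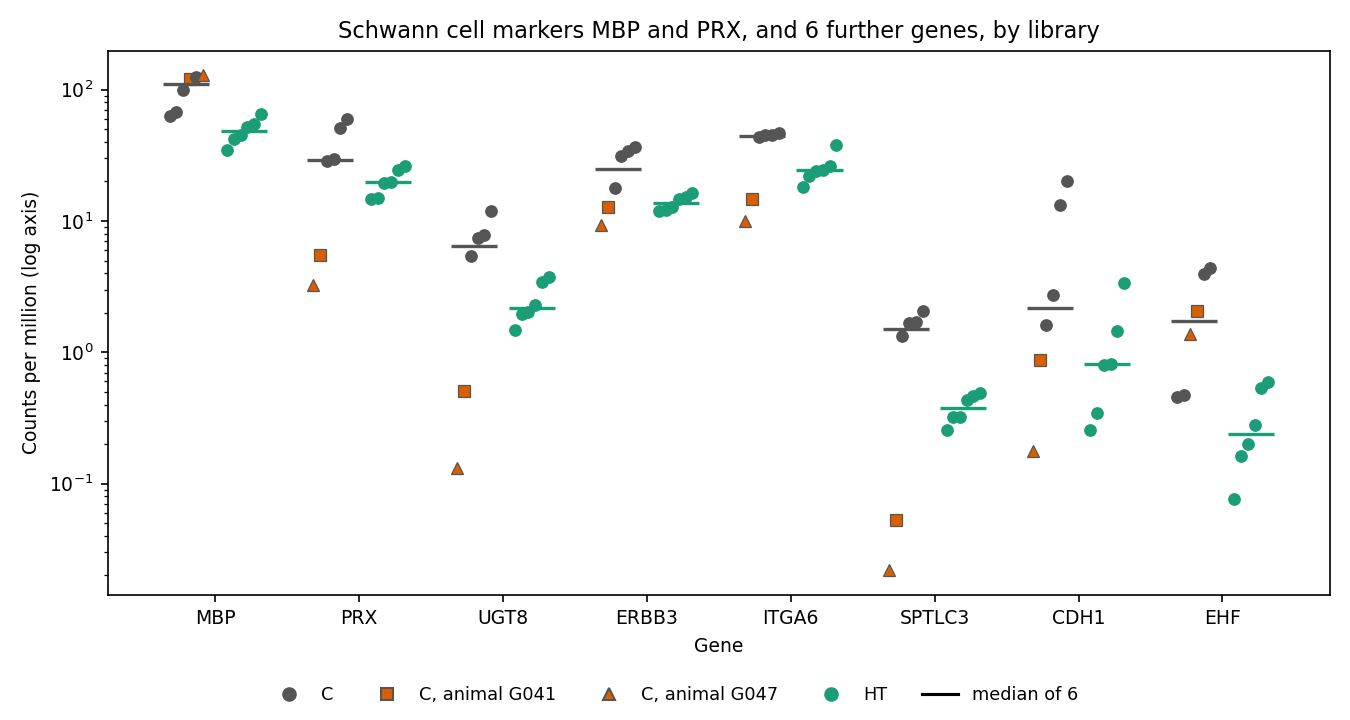
CPM in each library, on a log axis, of MBP, PRX, UGT8, ERBB3, ITGA6 and SPTLC3 and of the epithelial genes CDH1 and EHF. Symbols are as in the plot of list levels and the bar is the median of 6. In PRX, UGT8, ERBB3, ITGA6 and SPTLC3 the 4 C libraries other than G041 and G047 lie above HT, whereas in MBP the orange symbols are among the highest.

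Few of the genes by which fat cells build and store lipid read lower or higher in HT. None of 23 genes of fatty acid synthesis had a p under 0.05 (median log2 fold change 0.09), nor did any of 17 genes of fatty acid uptake (0.30) or of 27 adipogenic factors (-0.02), and of 23 lipid droplet and lipolysis genes 2 read lower (0.22). The 9 adipocyte markers all had a positive sign with a median of 0.43, and without G041 and G047, whose adipocyte levels were the lowest, 5 of 9 were negative and the median was -0.03. SCD, which desaturates stearic acid, was at 37.8, 79.8 and 226 CPM in C and 15.8, 36.1 and 342 CPM in HT, a change of 0.30 ± 0.79 (edgeR adjusted p = 0.896). HT libraries G012 and G189 were above every C library and G008, G066 and G121 below every one, so the spread within HT exceeded the difference. ELOVL6, ME1 and FABP3, which lengthen fatty acids, supply NADPH and carry fatty acids, read 0.04 ± 0.51, 0.09 ± 0.36 and -0.18 ± 0.51 (edgeR adjusted p = 0.979, adjusted p = 0.931 and adjusted p = 0.902). LEP, the hormone of fat stores, was at 2.75, 12.5 and 35 CPM in C and 1.38, 30.7 and 172.8 CPM in HT (1.51 ± 0.89, edgeR adjusted p = 0.496), with overlapping groups. MLXIPL, the glucose-sensing factor of lipogenesis, read 1.21 ± 0.57 (edgeR adjusted p = 0.408), JAZF1, a cofactor in lipid and glucose metabolism, 0.74 ± 0.34, and NR4A3, an immediate early nuclear receptor, -0.31 ± 0.45 (edgeR adjusted p = 0.805), and in the 10 libraries none of these had a p under 0.05.

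Of 24 genes of cholesterol synthesis 5 read lower at p under 0.05 (median -0.28) and 0 without G041 and G047 (median 0.08). Of 29 genes of fatty acid oxidation and uncoupling 1 read lower, UCP2, an uncoupling protein also of immune cells, at -1.88 ± 0.66 and -0.20 ± 0.34 without the pair. None of 13 mitochondrially encoded and 33 nuclear respiratory genes had a p under 0.05.

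Some connective tissue genes read higher in HT. Of 22 proteoglycan and tendon genes 4 read higher and 1 lower at p under 0.05 (median log2 fold change 0.49), against 2 and 0 in the 10 libraries (median 0.32), and of 25 collagens 2 read higher. FBLN5, which assembles elastic fibres, was at 20.5, 66.5 and 168 CPM in C and 82.2, 183 and 235 CPM in HT, a change of 1.25 ± 0.40 and of 0.90 ± 0.32 in the 10 libraries (p under 0.05). OGN, a small proteoglycan, was at 39.9, 91.6 and 134 CPM in C and 83.2, 146 and 366 CPM in HT, with 0.96 ± 0.37 and 1.03 ± 0.45. TNC, the tenascin of remodelled tissue, was the member that read lower, at 41.2, 187 and 1190 CPM in C and 19.6, 31.8 and 106 CPM in HT, with -2.91 ± 0.82 and -1.25 ± 0.58 (p over 0.05). G047 held the highest TNC value and G041 the next, and the groups of all 3 genes overlapped. The list level ran from 4.09 to 5.96 in C and 4.74 to 6.83 in HT.

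The largest positive fold changes among genes with a p under 0.05 and at least 1 CPM in the higher group rested on 1 or 2 HT animals. SBK2, a kinase of striated muscle, was at 111 CPM in G121 and 91.1 in G012, at most 0.669 in the other HT libraries and at most 2.4 in C, a fitted change of 6.02 ± 2.04. G121 and G012 had the highest skeletal muscle levels of the 12 libraries, and C libraries G025 and G117, with levels of 10.4 and 10.1, had 2.4 and 0.191 CPM of SBK2. The part of muscle fibres in this difference was not tested. TEKT1, a cilium protein, was high in the same HT animals (12.4 and 7.99 CPM, at most 1.47 elsewhere). CIMIP4 and KNG1, the latter a precursor of bradykinin, were highest in G066 and G008, and TERB2, a meiosis gene, in G189 alone, at 20.4 CPM against at most 0.302 elsewhere.

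For mast cell genes the sign depended on the set of libraries. G041 and G047 had the highest mast cell levels of the 12 libraries (2.83 and 2.71). Leaving them out lowered the C group by construction, so the change of sign is only a description. MS4A2, a chain of the IgE receptor, was at 7.41 to 8.52 CPM in the other 4 C libraries, 77.3 in G041, 131 in G047 and 11.13 to 30 CPM in HT. Its change was -1.30 ± 0.77 with 12 libraries (edgeR adjusted p = 0.495, DESeq2 adjusted p = 0.385) and 1.10 ± 0.27 with 10 (p under 0.05, DESeq2 adjusted p = 0.0406), where every HT library was above every C library. Of 5 mast cell markers tested, 0 had a p under 0.05 with 12 libraries and 2 read higher with 10 (median log2 fold change -0.04 and 1.10).

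Whether the difference between HT and C depended on the vitamin E level of the feed was tested as the interaction of both antioxidants in all 24 libraries, where the other 12 came from sows given vitamin E at 100 mg per kg without or with hydroxytyrosol. Of the 33 genes with the smallest p in either direction in the 12 or the 10 libraries, 14 had an interaction at an edgeR adjusted p of at most 0.10, as had 3.95% of all genes tested in that fit, and the smallest adjusted p among them was 0.0391. These genes were chosen for their difference between HT and C and the interaction contains the same libraries, so an excess was built in and the count is only a description.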

How the data were processed

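Total RNA of dorsal subcutaneous fat was sequenced by the authors as 1 poly(A) library per piglet, and the deposited values are raw counts of reads per gene, made by the authors with FastQC, Trim Galore, HISAT2, HTSeq and the Sscrofa11.1 genome, whose versions are not given in the sources used here. The labels and the methods of the study name different sequencers and read lengths, so neither is given, and a stranded count is not stated. Rows of HTSeq that name no gene were left out, of which reads without a feature were 9.38% to 16.5% of all entries.

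A gene was dropped where at least 9 of the 12 libraries held no count of it, and the diets were compared with edgeR 4.0.16 (TMM factors, quasi-likelihood F test, Benjamini-Hochberg adjustment over all genes tested, q ≤ 0.10 and fold change ≥ 1.5) in R 4.3.3. The SE of a log2 fold change was its size divided by the root of F. DESeq2 1.42.0, limma 3.58.1 (voom with quality weights), RLE factors, other filters, all 24 libraries, a skeletal muscle covariate and leaving out libraries were tried. The tests were tried on a single simulated data set with the spread that edgeR estimated in the 10 libraries without G041 and G047. On this set DESeq2 called more unchanged genes than edgeR and voom. No libraries were identical (highest correlation 0.983). Replicates are separate animals of separate litters. Names came from a RefSeq table for 14857 of the 25880 identifiers, and for 44 more from the names in the study's supplementary tables; lists use the former. Genes were named by this rule: the 10 smallest p in each direction with and without G041 and G047, the 5 largest fold changes in each direction at p under 0.05 and 1 CPM, those the study's text names for this contrast, and up to 4 per list, and exceptions are marked. A few genes that the rule names are not reported here. The members, the 61 gene lists and the set of 10 libraries were chosen with earlier results of these data known. Promoters and coordinates are from RefSeq on Sscrofa11.1. Figures were drawn with matplotlib 3.10.9.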

Additional observations from a re-analysis of the deposited data

Results flagged for a closer look

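In 5 of 44 groups of 6 libraries examined, 1 library lay far from the other 5, by the 95% critical value of Dixon's ratio of the gap to the range. By chance about 1 group in 20 would do so if values were normally spread, which CPM of single genes need not be. The ratio can also miss libraries that lie far out together, as G041 and G047 did in many genes. TET3 was at 9.79 CPM in C library G047, and all C libraries lay above all HT libraries. NPTX2 was at 0.114 CPM in C library G035, PIK3R1 at 248 CPM in HT library G189, SBK2 at 2.4 CPM in C library G025, and CCL22 at 0.345 CPM in HT library G189. The difference between HT and C also differed with the vitamin E level of the feed in 14 of the 33 named genes with the smallest p-values, by the interaction term of edgeR over all 24 libraries (adjusted p of at most 0.10), which 3.95% of all genes tested also passed. Those genes were chosen for their difference between HT and C in libraries that the interaction reuses, so an excess was built in and the count is only a description.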

How the results depend on the processing

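No gene was called by edgeR with TMM or RLE factors, under any filter, with all 24 libraries, with the muscle covariate, by voom, or on leaving out any 1 library, whereas DESeq2 called 740 and, without C animals G041 and G047, 63. At an unadjusted p under 0.05, genes lower in HT numbered 1754, but 579 by voom with sample quality weights, 835 with the skeletal muscle covariate, 619 without G041 and G047 and 594 in DESeq2 without them. Leaving out 1 library gave 1035 (without G047) to 2182, and 1106 without G041. Genes higher in HT numbered 441, but 670 in DESeq2, 883 with all 24 libraries and 230 without G041 and G047, and leaving out 1 library gave 299 (without G047) to 752 (without G025), with 721 without G206. Of 92 named genes, 12 changed sign under some alternative. Without G041 and G047, by voom and in DESeq2 without the pair, the log2 fold change was 0.65, 0.24 and 0.63 for IFNG, 1.31, 0.54 and 1.32 for IL27, 0.44, 0.20 and 0.45 for IL10RA, 0.36, 0.068 and 0.35 for IRF8, 0.91, 0.55 and 0.91 for CASP1, 1.10, 0.70 and 1.10 for MS4A2, -0.38, -0.26 and -0.37 for ELOVL6 and -0.21, -0.25 and -0.20 for ME1. NLRP3 was at 0.0074 in DESeq2 without the pair. With the muscle covariate ELOVL6 was at -0.092, ME1 at -0.077 and SCD at -0.39, and SCD was at -0.45 by voom. Leaving out 1 library gave -10.35 to 0.51 for KRT85, -0.33 to 0.71 for SCD, -0.21 to 0.40 for ELOVL6, -0.11 to 0.27 for ME1 and -0.41 to 0.21 for FABP3. The median of 29 of 61 lists had the other sign without G041 and G047. The causes were not tested. No paired analysis was possible, because the study describes no pairing of piglets between the diets and each came from a separate litter. No replicate block was fitted either, because the columns carry animal numbers and not the replicate numbers of the labels. The ranges of depth overlapped between the diets. Genes far under 1 CPM in the lower group, such as CCL1, TERT and NPTX2, rest on few counts there.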

Other observations

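Further lists were described by the number of members that read lower or higher in HT at an unadjusted edgeR p under 0.05 and by their median log2 fold change, with the median in the 10 libraries without G041 and G047. Over all genes tested 10% read lower and 2.52% higher at that p with 12 libraries, and many of the counts below lie near these shares. Among immune lists, 2 of 7 regulatory cytokines (median -0.20, then 0.30), 2 of 18 NF-kB pathway genes (-0.51, then 0.16), 2 of 29 interferon response genes (0.11, then 0.21), 7 of 20 complement genes (-0.72, then -0.15), 1 of 11 genes of MHC class I presentation (-0.91, then 0.06) and 7 of 23 phospholipases A2 and eicosanoid genes (-0.41, then 0.13) read lower, and 0 read higher. Of cell type markers, 5 of 7 for dendritic cells (-2.45, then -0.03), 4 of 8 for neutrophils (-2.78, then -0.32), 1 of 12 for cytotoxic lymphocytes (-1.97, then 0.75), 1 of 4 for lymph node stroma (-1.11, then -0.20) and 2 of 9 for stromal progenitors (-0.01, then 0.02) read lower.

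None of 8 endothelial (0.25, then -0.15), 5 skeletal muscle (0.86, then 0.32), 5 erythroid (0.51, then 0.42) or 5 hepatocyte markers (0.35, then 0.10) had a p under 0.05, 1 of 9 smooth muscle markers read higher (0.56, then 0.15), and of 12 cardiac and slow muscle genes 1 read lower and 1 higher (0.64, then 0.18). None of 26 HOX genes, which mark the position of a cell along the body, had a p under 0.05 (0.41, then 0.02). Their level was lowest in G047 (0.334) and G041 (0.895), against 1.37 to 2.47 in the other C libraries and 1.66 to 2.59 in HT. In metabolism and stress, 3 of 10 genes of nitric oxide and arginine (-0.22, then 0.06), 2 of 4 vitamin C carriers (-0.47, then -0.19), 3 of 23 glycolysis genes (-0.19, then 0.24), 5 of 25 immediate early genes (-0.31, then -0.09) and 2 of 18 heat shock genes (-0.22, then 0.01) read lower. Of 26 retinoid genes 3 read lower and 1 higher (0.09, then -0.11), of 18 genes of triacylglycerol synthesis 1 and 1 (0.15, then 0.00), of 23 adipokines and insulin signalling genes 1 and 2 (0.25, then 0.05), and of 26 matrix metalloproteinases and inhibitors 5 and 1 (-0.32, then -0.13).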
